A study of Mus musculus with 9 samples.

Results

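The endothelin genes described here are Edn1 and Edn3, which encode endothelin-1 and endothelin-3, Ednra and Ednrb, which encode the endothelin receptors A and B, and Ece1, which encodes endothelin converting enzyme 1. These 5 genes were taken by symbol from 15779 genes measured in mouse hearts. The set was chosen because Edn3 was listed at 0 in wild-type hearts and remained high in treated mutant hearts, so the Edn3 values are given as a description without a test. The other 4 genes belong to the same ligand and receptor system and were not chosen for their own values.

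Polyadenylated RNA was sequenced from heart pieces of adult C57BL/6J mice in 3 groups of 3 libraries. Wild-type mice received saline. Mice homozygous for the Mybpc3 allele R946X (genotype Mybpc3R946X/R946X), a premature stop codon in the gene for cardiac myosin-binding protein C, received either saline or high-dose-exABE8e. That name is not defined further by the labels. The study developed adenine base editors, which turn A into G at a guided site, and used adeno-associated virus AAV9 to express them in cardiomyocytes. The strain and tissue were common to all groups, and the labels gave neither sex, dose, exact age nor time after treatment.

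Endothelins are short vasoactive peptides that are cut from longer precursors. Furin-like proteases release an inactive intermediate, and endothelin converting enzyme cuts this to the active peptide. Receptor A, on smooth muscle cells and cardiomyocytes, binds endothelin-1 far more tightly than endothelin-3 and couples to Gq, phospholipase C and protein kinase C. Receptor B, prominent on endothelial cells, binds both peptides with similar affinity and also clears them. In the heart, endothelin-1 is known as a constrictor and a hypertrophic signal, whereas endothelin-3 is best known for its part with receptor B in the development of neural crest cells, among them melanocytes and enteric neurons.

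The 250 bases before the transcription start of the 2 ligand genes are shown because the 2 genes differed in their pattern over the groups. Both sequences are from RefSeq on GRCm38.p6, from the plus strand, 5′ to 3′, at chr2:174760369-174760618 for Edn3 and chr13:42301226-42301475 for Edn1. Capitals mark every match to 6 motifs searched on both strands, which were the AP-1 motif TGANTCA, the GATA motif in the forms AGATAA or TGATAA or AGATAG or TGATAG, the MCAT motif CATTCC, the E-box CANNTG, the TATA box TATAAA and the GC box GGGCGG.
Edn3: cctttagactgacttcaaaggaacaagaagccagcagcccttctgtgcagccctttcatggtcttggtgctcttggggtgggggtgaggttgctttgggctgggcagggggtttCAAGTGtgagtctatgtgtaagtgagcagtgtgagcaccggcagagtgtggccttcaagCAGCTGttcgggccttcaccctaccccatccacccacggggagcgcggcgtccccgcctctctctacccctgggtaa
Edn1: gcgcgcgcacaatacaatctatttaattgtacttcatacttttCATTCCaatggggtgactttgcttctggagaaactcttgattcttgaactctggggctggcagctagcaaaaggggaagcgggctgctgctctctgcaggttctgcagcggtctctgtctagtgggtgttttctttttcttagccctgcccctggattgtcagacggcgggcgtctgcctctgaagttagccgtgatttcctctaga
The Edn3 window held 2 E-boxes, which begin 136 and 77 bases before the start, and no match to the other 5 motifs. The Edn1 window held 1 MCAT motif, which begins 207 bases before the start, and no E-box. An E-box was present in 66.2% of 32817 such windows and an MCAT motif in 12.6%. The G and C content was 59.2% for Edn3 and 50.4% for Edn1. A match describes the letters only.

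The mutated gene was read first as a check of the labels. Mybpc3 stood at 1510, 1795 and 2039 in the wild-type group, at 133, 142 and 186 in the saline mutants and 1024, 1374 and 1332 in the treated mutants, so all 9 libraries followed their labels. Library totals lay between 999152 and 999382 on a per-million scale, which leaves the sequencing depth unknown. The labels did not say whether libraries came from separate animals, and p-values measure the spread between these libraries. Xist, a transcript of female cells, was above 0 in wild-type replicate 1 (119), saline mutant replicate 3 (351) and treated replicate 1 (39). The Y-linked gene Ddx3y was 0 in the first 2 of these and 38 in treated replicate 1, against 70 to 97 in the other 6 libraries. In bulk tissue, fewer cells of a type and less RNA per cell cannot be told apart.

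Edn3 lies on chromosome 2 from 174760619 to 174784042 (GRCm38, plus strand), 83.6 Mb from Mybpc3 on the same chromosome. Its value was 0 in each of the 3 wild-type libraries, 39, 51 and 40 in the saline mutants and 64, 38 and 26 in the treated mutants. The saline mutant mean was 43.3 ± 6.66 (SD, n = 3) and the treated mean 42.7 ± 19.4 (SD, n = 3). Every mutant library was above every wild-type library, and the range of the treated mutants enclosed that of the saline mutants. The spread between treated libraries was wider, with a coefficient of variation of 45.5% against 15.4%. Without the 3 libraries with Xist, the values were 0 and 0 in wild type, 39 and 51 in the saline mutants and 38 and 26 in the treated mutants. The highest value, 64, came from treated replicate 1, the library with both Xist and Y-linked transcripts and with the lowest Mybpc3 value of the treated group. These 9 values are those that chose the set.

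**Figure D1:**
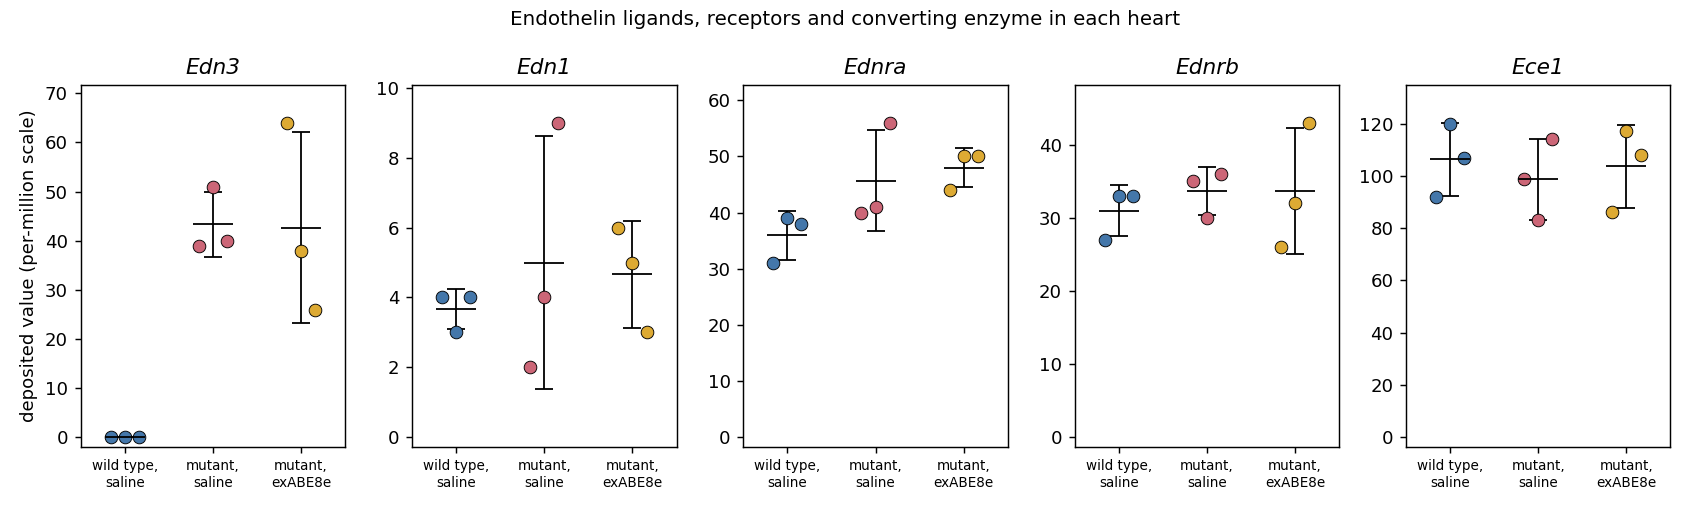
Deposited values (per-million scale, linear axes from 0) of Edn3, Edn1, Ednra, Ednrb and Ece1 in each of 9 heart libraries. Points are libraries, horizontal bars group means and whiskers SD (n = 3). Edn3 is at 0 in 3 of 3 wild-type libraries and at 26 to 64 in the 6 mutant libraries. Edn1, Ednrb and Ece1 overlap between all groups.

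A value of 0 in all wild-type libraries was common, but a high value in all mutant libraries beside it was not. Of 874 genes at 0 in each wild-type library, 49 were above 0 in all 6 mutant libraries, 8 were at 2 or more, 3 were at 3 or more and 1 was at 5 or more. That 1 gene was Edn3, whose lowest mutant value was 26. The set was chosen for this same pattern of Edn3, so its place in the order is a description only. The next in order were Gdf15, a stress-induced cytokine, and Vgll2, a cofactor of TEAD transcription factors in skeletal muscle. Gdf15 was 3, 4 and 6 in the saline mutants and 11, 3 and 3 in the treated mutants. Vgll2 was 4, 9 and 5 in the saline mutants and 12, 5 and 3 in the treated mutants. Like Edn3, both had their highest value in treated replicate 1. The others at 2 or more, named after their values were seen, were Ankrd2, Dclk3, Krt8, Serpinb1c and X5830418P13Rik.

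The genes with the profile most like Edn3 were ranked by Pearson's r of log2(value + 1) over the 9 libraries, among 13340 genes with a mean of at least 1. Among the first 5 were Azin2 (r = 0.992), Dct (r = 0.990), Myot (r = 0.984) and P2rx5 (r = 0.984). The libraries fall into a wild-type and a mutant cluster, so these r values mostly restate the step between them, and over the 6 mutant libraries alone r was 0.852 for Dct, 0.828 for P2rx5 and 0.734 for Myot. Azin2 stood at 1 in each wild-type library and 2 in each mutant library, the smallest step that whole numbers allow. Dct, which encodes the melanin-pathway enzyme dopachrome tautomerase, was 3, 4 and 3 in wild type, 19, 19 and 19 in the saline mutants and 20, 16 and 12 in the treated mutants. Its treated libraries stood in the same order as for Edn3, with replicate 1 highest and replicate 3 lowest. Myot, the Z-disc protein myotilin, was 14, 9 and 18, then 261, 238 and 245, then 243, 229 and 106 in the same order of groups. P2rx5, an ATP-gated ion channel, was 13, 14 and 15, then 29, 29 and 29, then 31, 30 and 23. The points share libraries and scaling, and the profiles were selected for likeness to Edn3, so they are described without a test. The other melanocyte gene with a value among 5 listed was Pmel, which was 1 in treated replicate 1 and 0 in the other 8 libraries. Tyr, Tyrp1 and Mlana were not analysed here.

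**Figure D2:**
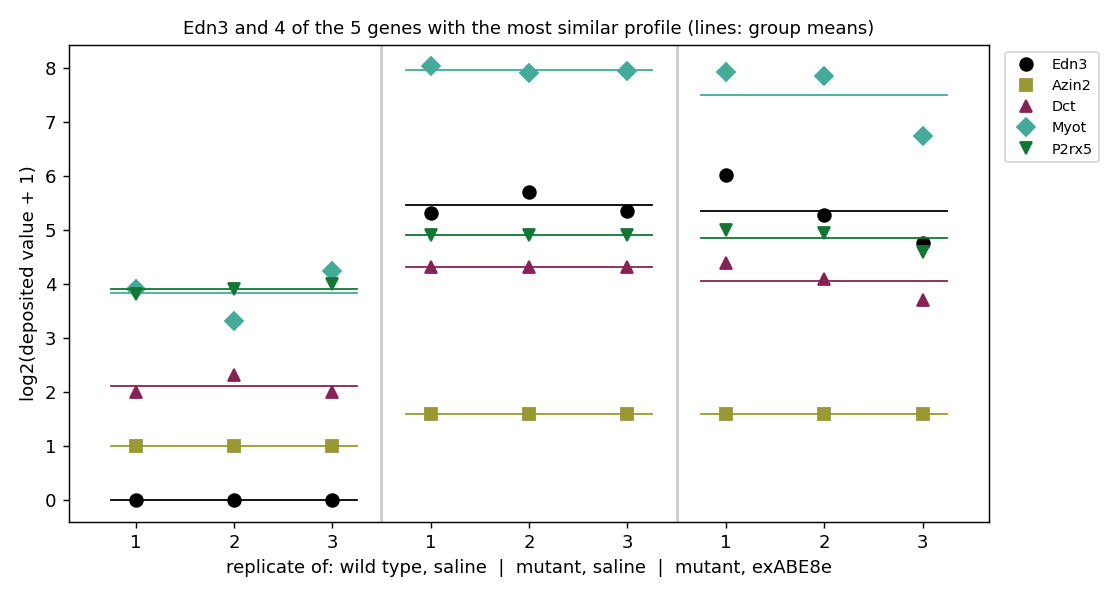
log2(deposited value + 1) of Edn3 and 4 of the 5 genes with the highest Pearson's r to it, for each replicate of the 3 groups; lines are group means. Edn3 steps from 0 to between 26 and 64 on the deposited scale, and Dct, Myot and P2rx5, like Edn3, are lowest within the treated group in replicate 3.

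Each treated library was placed between the saline groups on a linear scale, with 0 at the saline mutant mean and 1 at the wild-type mean. For Edn3 the positions were -0.477, 0.123 and 0.40 in treated replicates 1 to 3, with a mean of 0.0154 ± 0.448 (SD, n = 3). For Mybpc3 itself they were 0.535, 0.750 and 0.724. Of the 6 response genes called in saline mutants, 4 lay nearer to wild type, with mean positions of 0.824 ± 0.0606 for Nppa, 0.792 ± 0.143 for Nppb, 0.880 ± 0.0277 for Acta1 and 0.886 ± 0.135 for Myh7. In each of the 3 treated libraries the position of Edn3 was below that of all 4 of these genes. Dct at 0.191 ± 0.255, P2rx5 at 0.0667 ± 0.291 and Ankrd1, a stretch-responsive cofactor, at 0.258 ± 0.351 lay nearer to Edn3. Jun was at 0.101 ± 0.268, and Atf3, a stress-induced transcription factor, at -0.40 ± 0.952, farther from wild type than Edn3. The positions share both saline groups and are a description.

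**Figure D3:**
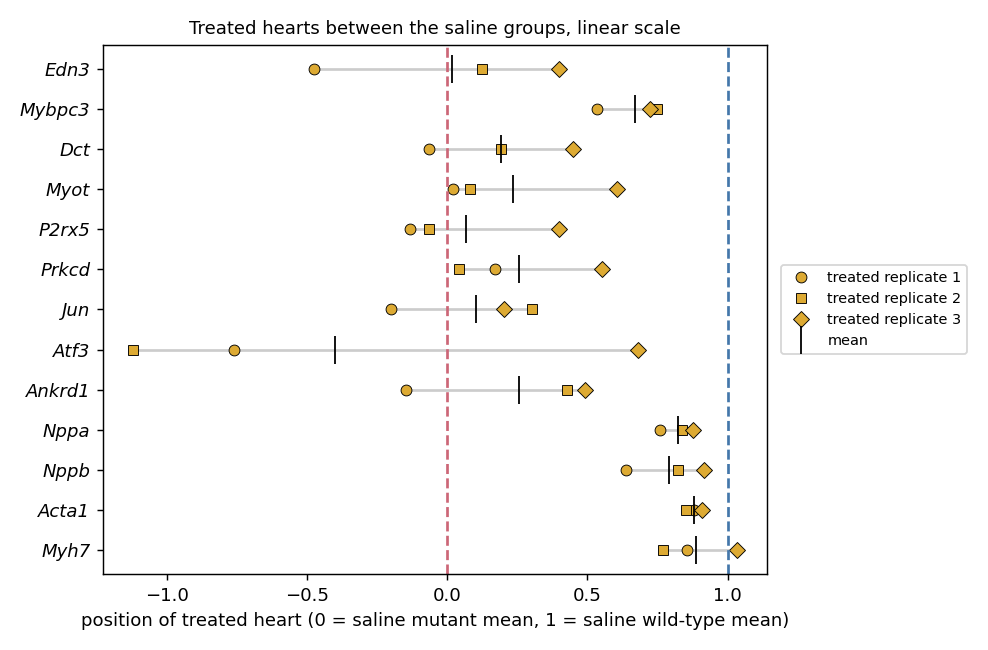
Place of every treated library from the saline mutant mean (0) to the wild-type mean (1) on a linear scale. Genes are Edn3, Mybpc3, those with an Edn3-like profile and those of the hypertrophic response. Symbols are the 3 treated replicates and ticks their mean. Edn3 spans -0.477 to 0.40 around a mean of 0.0154, Nppa, Nppb, Acta1 and Myh7 lie to the right with means from 0.792 to 0.886, and Atf3 lies to the left with a mean of -0.40.

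Genes next to Edn3 were read to see whether the step extended along the chromosome. GENCODE M21 places 34 other genes within 500 kb of Edn3, of which 9 had a value and 6 were tested. None of the 6 was called by limma at an adjusted p under 0.05 in any comparison, and at an unadjusted p under 0.05 there were 2 between the saline groups, 1 between the mutant groups and 3 between treated mutants and wild type, against 2690 of 13632, 1130 of 13636 and 1697 of 13554 over all genes. Prelid3b, a mitochondrial lipid transfer protein gene that starts at -287.5 kb from the Edn3 start, was 65, 65 and 62 in wild type, 75, 87 and 88 in the saline mutants and 88, 67 and 80 in the treated mutants (log2 difference 0.37 between saline groups, limma adjusted p = 0.0699). Ctsz, a cathepsin gene that starts at -321.6 kb, was 41, 39 and 29, then 43, 64 and 69, then 48, 44 and 44 (0.66 between saline groups, limma adjusted p = 0.0903). Nelfcd, a subunit of negative elongation factor, was 29, 31 and 28, then 32, 34 and 33, then 35, 35 and 35 (0.17 between saline groups, limma adjusted p = 0.441). Gnas, which encodes the stimulatory G protein subunit, was 28, 36 and 30, then 34, 35 and 36, then 23, 27 and 16, lower without overlap in treated mutants by -0.68 against saline mutants (limma adjusted p = 0.36) and -0.51 against wild type (limma adjusted p = 0.34). In all, groups did not overlap for 3 of 6 neighbours between the saline groups (Prelid3b, Ctsz and Nelfcd, all higher), 2 of 6 between the mutant groups (Gnas and Nelfcd) and 4 of 6 between treated mutants and wild type (these 4), against 21.6%, 9.82% and 14.6% of all genes tested. Each of these differences was smaller than the step in Edn3, but Edn3 was chosen for its step, so that contrast is a description only. No tested gene started between -287.5 kb and 381.4 kb, so the step was not read closer to Edn3. Gm14399, 381.4 kb downstream, belongs to a cluster of near-identical zinc finger genes whose values are uncertain, and stood at 1 to 3 in all libraries. Zfp831 and Tubb1, in the same window, were not analysed here.

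**Figure D4:**
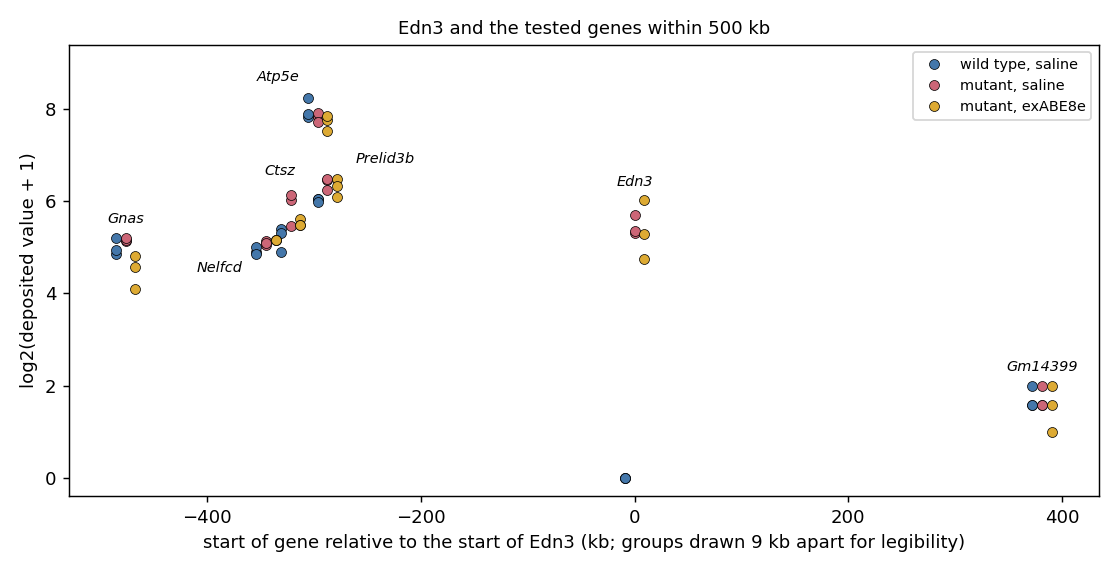
log2(deposited value + 1) in all 9 libraries (colours are the 3 groups) for Edn3 and the 6 tested genes within 500 kb, by distance of the gene's start from that of Edn3. Edn3 separates wild type from mutant at 0 against 26 to 64, and the other genes differ less between the groups, with Gnas lowest in the treated mutants (16 to 27) and Ctsz highest in the saline mutants (43 to 69).

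The other ligand with values was Edn1, on chromosome 13 from 42301476 to 42307990, and it was scarce in every library. It was 4, 3 and 4 in wild type, 2, 4 and 9 in the saline mutants and 6, 5 and 3 in the treated mutants. The groups overlapped, and the value of 9 in saline mutant replicate 3 stood apart from the other 8, which ranged from 2 to 6. The mean was 3.67 ± 0.577 in wild type, 5.0 ± 3.61 in saline mutants and 4.67 ± 1.53 in treated mutants (SD, n = 3), and no neighbours in that order differed beyond their spread. The limma log2 difference was 0.19 between saline mutant and wild type (SE 0.383, adjusted p = 0.839), with a 95% interval from -0.68 to 1.07. It was 0.05 between treated and saline mutant (SE 0.413, adjusted p = 1.0; interval -0.89 to 1.0) and 0.25 between treated mutant and wild type (SE 0.232, adjusted p = 0.734; interval -0.29 to 0.79). These intervals allow changes of up to about 2.09-fold in saline mutants, so values this low limit what could be detected. The sign of the first difference rested on saline mutant replicate 3, without which it was -0.26. The gene with the profile most like Edn1 over the 9 libraries was the aspartyl aminopeptidase gene Dnpep (r = 0.970), followed by Tmed2 (r = 0.953), Pip4p1 (r = 0.952), Atg16l2 (r = 0.949) and Asb3 (r = 0.942). Dnpep ranged only from 58 to 68, with its highest value in saline mutant replicate 3, as for Edn1.

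Of the 4 genes other than Edn3, none was called in any of the 3 comparisons by limma on log2(value + 1), adjusted over all genes tested. Of all tested genes, 7.70% were called between the saline groups, 0.0147% between the mutant groups and 0.989% between treated mutants and wild type. At an unadjusted p under 0.05 the count was 0 of 4, 0 of 4 and 1 of 4. The 1 was Ednra in treated mutants against wild type. Over all genes, 2690 of 13632, 1130 of 13636 and 1697 of 13554 passed this unadjusted threshold. Values did not overlap between groups for 1 of 4 genes between the saline groups, 0 of 4 between the mutant groups and 1 of 4 between treated mutants and wild type, Ednra each time, against 21.6%, 9.82% and 14.6% of all tested genes. Over 201 alternative fits of these 4 genes the call was made 0 times, and the lowest adjusted p was 0.152.

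Receptor A transcripts were not called in any comparison. Ednra (chromosome 8 from 77663031 to 77724464, minus strand) was 31, 39 and 38 in wild type, 40, 41 and 56 in the saline mutants and 44, 50 and 50 in the treated mutants. All 6 mutant libraries were above the 3 wild-type libraries, while the 2 mutant groups overlapped. The means were 36.0 ± 4.36, 45.7 ± 8.96 and 48.0 ± 3.46 (SD, n = 3). The log2 difference was 0.33 in saline mutants against wild type (SE 0.158, limma adjusted p = 0.302; 95% interval -0.03 to 0.68) and 0.41 in treated mutants against wild type (SE 0.123, unadjusted p = 0.0113, limma adjusted p = 0.225; interval 0.12 to 0.70). Between treated and saline mutants it was 0.08 (SE 0.150, limma adjusted p = 0.905; interval -0.26 to 0.43). Of all genes tested, 12.8% were higher without overlap in the saline mutants and 9.13% in the treated mutants, each against wild type. The gap in the first case was 1 unit, between 39 and 40. Without the libraries with Xist the difference between the saline groups was 0.0713 (limma adjusted p = 0.838), that between the mutant groups 0.30 (limma adjusted p = 0.711) and that between treated mutants and wild type 0.37 (limma adjusted p = 0.597). For fibroblasts, a cell type that also carries receptor A, 6 markers summed to 1028 to 1375 in wild type, 1587 to 2375 in saline mutants and 1219 to 1453 in treated mutants, and 1 of 6, Col1a1, was called higher in saline mutants. The sums of treated mutants overlapped those of wild type. Dcn, at 624 to 835 in wild type, was the largest part of each sum. The 6 smooth muscle and pericyte markers summed to 428 to 602, 332 to 374 and 398 to 408, with Acta2 called lower in saline mutants. Acta2 alone was 189 to 328, 117 to 118 and 161 to 186, and the other markers of this list overlapped between the saline groups. Of all genes tested, 7.70% were called between the saline groups. The part of either cell type in the Ednra values was not tested.

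Receptor B transcripts overlapped between all groups. Ednrb (chromosome 14 from 103814625 to 103844402, minus strand) was 27, 33 and 33 in wild type, 35, 30 and 36 in the saline mutants and 26, 32 and 43 in the treated mutants. The lowest and the highest of the 9 values both came from the treated group, in replicates 1 and 3. The log2 difference was 0.12 in saline mutants against wild type (SE 0.130, limma adjusted p = 0.705; 95% interval -0.18 to 0.41), -0.02 in treated against saline mutants (SE 0.182, limma adjusted p = 1.0; interval -0.44 to 0.39) and 0.09 in treated mutants against wild type (SE 0.187, limma adjusted p = 0.902; interval -0.34 to 0.53). Endothelial markers, from the main cell type known for receptor B, summed over 6 genes to 913 to 1257 in wild type, 836 to 959 in saline mutants and 870 to 992 in treated mutants. Of these, 0 of 6 were called in any comparison. That count is near the share of all genes tested, 7.70% between the saline groups, 0.0147% between the mutant groups and 0.989% between treated mutants and wild type.

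The balance of the receptors was taken within each library as the log2 ratio of Ednra + 1 to Ednrb + 1, which no scaling between libraries can change before the pseudocount is added. It was 0.19, 0.23 and 0.20 in wild type, 0.19, 0.44 and 0.62 in the saline mutants and 0.74, 0.63 and 0.21 in the treated mutants. Wild-type libraries lay close together, and each mutant group held 1 library at or near their level. The mean was 0.21 ± 0.0228, 0.42 ± 0.219 and 0.53 ± 0.276 (SD, n = 3). The difference was 0.21 in saline mutants against wild type (two-sided exact permutation p = 0.40), 0.32 in treated mutants against wild type (exact p = 0.20) and 0.11 between the mutant groups (exact p = 0.50). With 3 libraries against 3 the smallest p this test allows is 0.10.

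The converting enzyme showed no separation of the groups. Ece1 (chromosome 4 from 137862237 to 137965229, plus strand) was 92, 120 and 107 in wild type, 99, 83 and 114 in the saline mutants and 86, 117 and 108 in the treated mutants. The means were 106 ± 14.0, 98.7 ± 15.5 and 104 ± 15.9 (SD, n = 3). The log2 difference was -0.11 in saline mutants against wild type (SE 0.145, limma adjusted p = 0.742; 95% interval -0.44 to 0.22), 0.07 in treated against saline mutants (SE 0.156, limma adjusted p = 0.939; interval -0.29 to 0.43) and -0.04 in treated mutants against wild type (SE 0.150, limma adjusted p = 0.972; interval -0.39 to 0.31). As folds, the widest interval, that between the mutant groups, ran from 0.820 to 1.35.

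Among the other genes that process or clear endothelins, Mme fell. Mme encodes neprilysin, a membrane peptidase that degrades endothelins and natriuretic peptides. It was 8, 11 and 13 in wild type, 4, 4 and 2 in the saline mutants and 5, 7 and 8 in the treated mutants. No saline mutant reached a wild-type or a treated value, and 5.48% of all tested genes were likewise higher without overlap in treated than in saline mutants. Between the saline groups, 21.6% of all tested genes did not overlap, counting either direction. The log2 difference was -1.44 in saline mutants against wild type (SE 0.253, limma adjusted p = 0.00992), and the call held in 15 of 16 alternative fits. Treated hearts lay between the groups, 0.84 above saline mutants (limma adjusted p = 0.439) and -0.60 from wild type (limma adjusted p = 0.306), neither of which was called. Furin, the protease that acts before Ece1, was 98, 108 and 113 in wild type, 146, 130 and 119 in the saline mutants and 151, 194 and 128 in the treated mutants. Both mutant groups lay above wild type without overlap, by 0.30 (limma adjusted p = 0.164) and 0.55 (limma adjusted p = 0.208), and neither difference was called. Against wild type, 12.8% of all tested genes were likewise higher without overlap in saline mutants and 9.13% in treated mutants. Of the 8 listed genes in this role 6 had a value, 5 were tested and 1 was called, for saline mutant against wild type. That is 20.0%, against 7.70% of all genes tested. Edn2, Ece2 and Kel were not analysed here.

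In the wider pathway list, most calls fell among the response genes. Over all roles other than the 5 genes above, 56 of 61 listed genes were tested and 10 were called for saline mutant against wild type (9 higher, 1 lower; 17.9% against 7.70% of all genes tested, of which 4.56% higher and 3.14% lower). The list median was 0.11 on the log2 scale against 0.07 for all genes. Of the 10, 6 were response genes of the hypertrophied cardiomyocyte, known to change in these hearts before the list was drawn up, and without that role the count was 4 of 49 (8.16%), near the background. The 13 G protein, regulator and arrestin genes included no call (2 at an unadjusted p under 0.05, against 2690 of 13632 over all genes). Gnaq, the G protein subunit through which receptor A acts, was 30, 39 and 33 in wild type, 30, 35 and 36 in the saline mutants and 26, 29 and 38 in the treated mutants, overlapping throughout. Between the saline groups 4 of the 13 did not overlap (Gna11, Gna12, Rgs2 and Grk2, all lower), against 21.6% of all tested genes. Rgs2 was 49, 49 and 34 in wild type, 32, 23 and 29 in the saline mutants and 27, 28 and 31 in the treated mutants. It was not called between the saline groups (-0.63, limma adjusted p = 0.0763), but was in 5 of 17 alternative fits.

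Of 22 effector genes tested, 2 were called in saline mutants, both isoforms of protein kinase C (9.09%, near the 7.70% of all genes tested). Prkcd was 16, 16 and 13 in wild type, 26, 31 and 35 in the saline mutants and 28, 30 and 22 in the treated mutants, without overlap of either mutant group with wild type. Such higher values without overlap were found for 12.8% of all tested genes in saline mutants and 9.13% in treated mutants. Prkcd rose by 0.98 in saline mutants (SE 0.149, limma adjusted p = 0.00536), a call that held in 17 of 17 alternative fits, and stood 0.78 above wild type in treated mutants (limma adjusted p = 0.0740, not called). Prkca was 29, 39 and 41 in wild type, 59, 60 and 58 in the saline mutants and 50, 43 and 58 in the treated mutants. It rose by 0.70 in saline mutants (SE 0.140, limma adjusted p = 0.0182), but was not called without saline mutant replicate 2 (adjusted p = 0.0838) or replicate 3 (adjusted p = 0.0523), nor without the rounding floor (adjusted p = 0.0551). A further isoform gene, Prkce, at 31, 46 and 44, then 33, 33 and 31, then 29, 40 and 39, was not called (-0.29, limma adjusted p = 0.356).

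Of 9 transcription factors known to act on Edn1, 1 was called (11.1% against 7.70% of all genes tested), Jun, a subunit of AP-1. Jun was 53, 52 and 46 in wild type, 98, 68 and 74 in the saline mutants and 86, 71 and 74 in the treated mutants. It rose by 0.64 in saline mutants (SE 0.147, limma adjusted p = 0.0321) and stood 0.60 above wild type in treated mutants (limma adjusted p = 0.0709, not called). The call was lost without saline mutant replicate 1 (adjusted p = 0.0570) or 3 (0.0651), without wild-type replicate 1 (0.0863), 2 (0.0624) or 3 (0.119), without the libraries with Xist (0.0922), under median-of-ratios (0.0584) or upper-quartile factors (0.0595), and without the rounding floor on the variance (0.0860). Fos, its partner, was 3, 1 and 1 in wild type, 2, 1 and 3 in the saline mutants and 12, 8 and 2 in the treated mutants, and was not called.

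The 7 response genes, which endothelin-1 and other hypertrophic stimuli are known to raise, included 6 calls in saline mutants. Nppa, Nppb, Acta1 and Myh7 rose by 3.25 to 3.95 on the log2 scale, Ankrd1 by 2.21 (limma adjusted p = 0.0011) and Atf3 by 1.45 (limma adjusted p = 0.0230). Ankrd1 was 411, 591 and 663 in wild type, 1811, 2695 and 3291 in the saline mutants and 2897, 1727 and 1594 in the treated mutants. Atf3, a stress-induced transcription factor, was 4, 3 and 3, then 19, 8 and 8, then 18, 21 and 6. The Atf3 call was lost without wild-type replicate 1 (adjusted p = 0.0764), 2 (0.0556) or 3 (0.0729) and without the libraries with Xist (0.0587). It was also lost without the rounding floor (0.0926) and with all 9 libraries in one fit (0.0724). With treatment, 1 of 56 list genes was called against saline mutants, Acta1, which was lower (1.79% against 0.0147% of all genes tested, of which 0.00733% in each direction), and 2 of 56 against wild type, Nppa and Ankrd1, both higher (3.57% against 0.989% of all genes tested, of which 0.863% higher and 0.125% lower). Outside the response genes the count was 0 of 49 in both comparisons, where 5 and 8 had an unadjusted p under 0.05. Over all genes, 1130 of 13636 and 1697 of 13554 passed that unadjusted threshold. The calls of Nppa and Ankrd1 were lost without wild-type replicate 1 (adjusted p = 0.0525 and 0.0989), 2 (0.0728 and 0.0940) or 3 (0.0687 and 0.0870) or without treated replicate 2 (0.0516 and 0.0761), and that of Ankrd1 also without treated replicate 1 (0.0523) and with the replicate number as a block (0.0776). Both were lost without the rounding floor (0.0614 and 0.107).

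**Figure D5:**
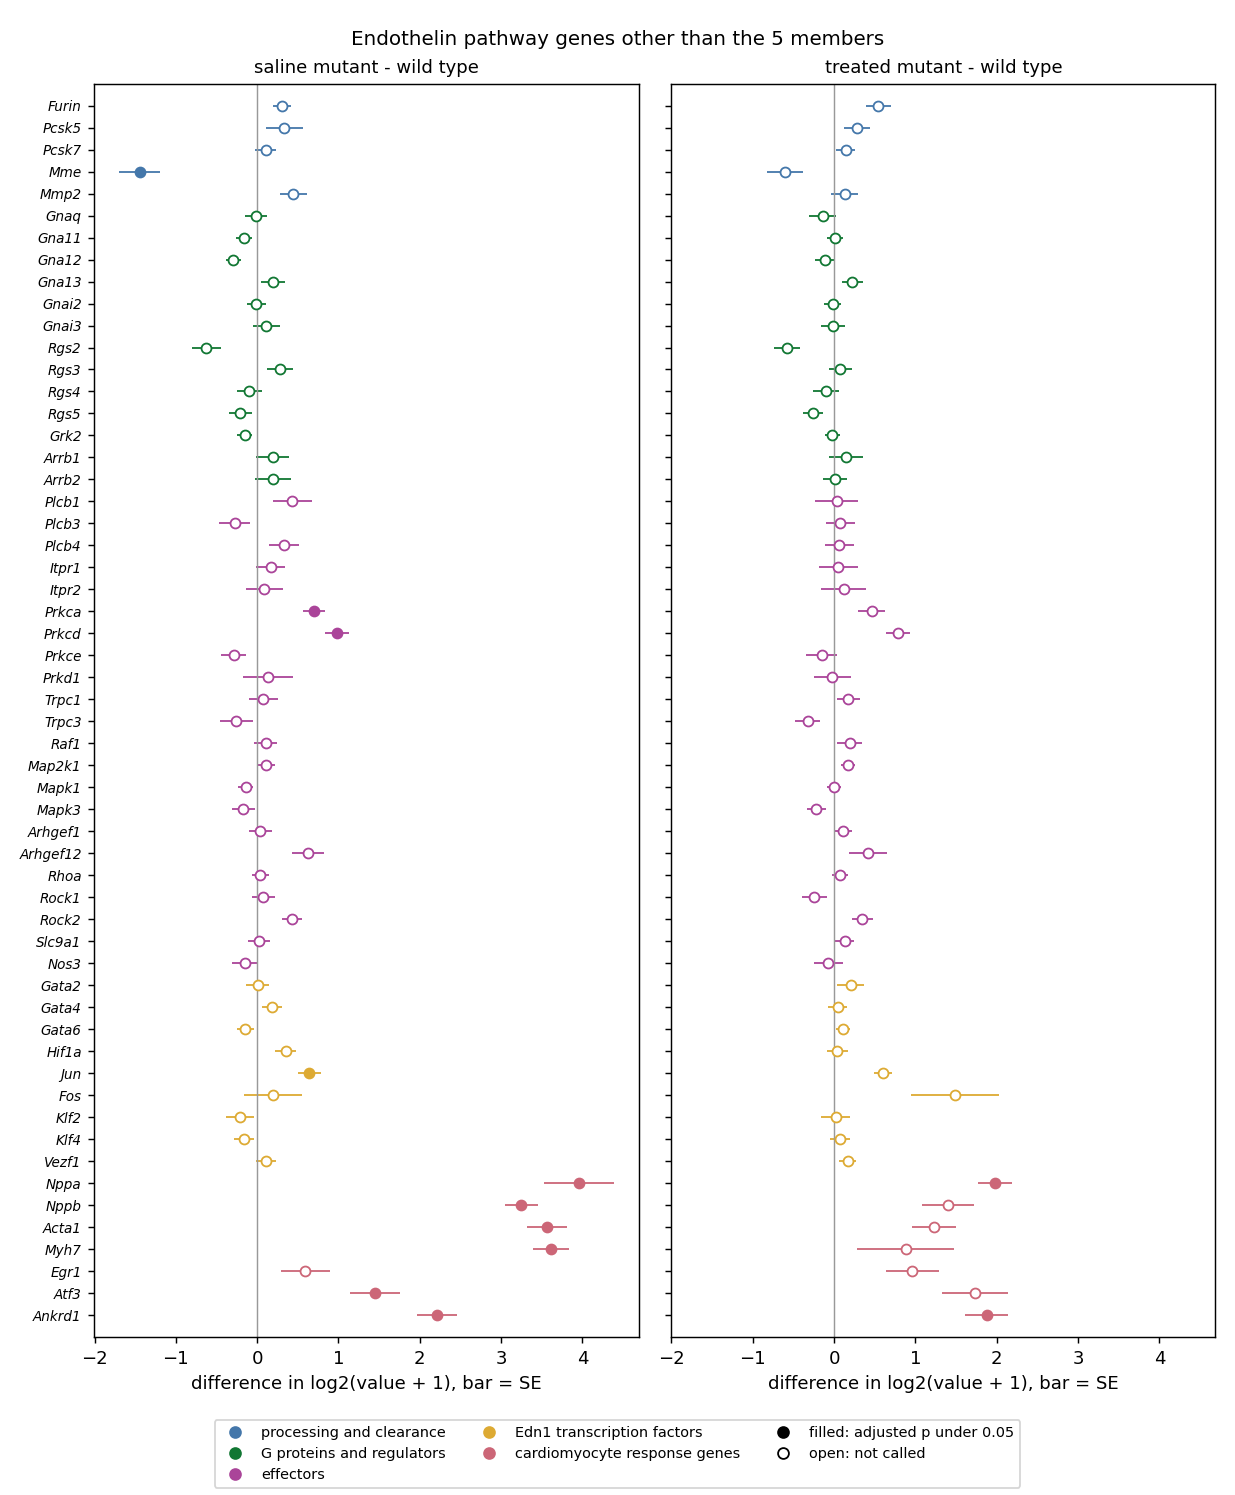
Difference in log2(value + 1) with its SE for 56 endothelin pathway genes other than the 5 members, by role, in saline mutants (left) and treated mutants (right) against wild type; filled symbols have a limma adjusted p under 0.05. In saline mutants Mme is lower and Prkca, Prkcd, Jun and 6 response genes are higher, and in treated mutants Nppa and Ankrd1 are higher.

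Markers of the cells that could carry endothelin transcripts were read in the same libraries. The 6 cardiomyocyte markers were present in all libraries, and 0 of 6 were called. They summed to 36558 to 44193 in wild type, 37157 to 46822 in saline mutants and 39508 to 43585 in treated mutants. The sums hide opposite shifts between the saline groups. Tnnt2, Tnni3 and Pln were lower in saline mutants without overlap and Actc1 was higher without overlap, while Myh6 and Ryr2 overlapped. Of all genes tested, 21.6% did not overlap between the saline groups. Of 6 Schwann cell and glia markers, 5 had a value and summed to 8 to 16 in wild type, 3 to 6 in saline mutants and 9 to 10 in treated mutants. Of 6 mesothelial markers, the sums were 3 to 6, 2 to 9 and 6 to 11. Endocardial markers summed to 51 to 73, 58 to 98 and 57 to 60, with 0 of 4 called. Of 5 atrial markers, Myl4 and Dkk3 had a value, summed to 5 to 6, 16 to 40 and 10 to 19, and both were called higher in saline mutants. Of all genes tested, 7.70% were called between the saline groups, 0.0147% between the mutant groups and 0.989% between treated mutants and wild type. A count of 0 among 4 or 6 markers is near those shares. Of 5 melanocyte markers, the 2 with a value, Dct and Pmel, summed to 3 to 4 in wild type, 19 in saline mutants and 12 to 21 in treated mutants. Nearly all of that sum was Dct, a gene ranked above for its likeness to Edn3. The part of any of these cells in the Edn3 values was not tested.

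The authors' deposited short lists of selected genes held Edn3 in both comparisons of mutants with wild type, and none of the 5 endothelin genes in that of the mutant groups. Of 15779 genes, these lists held 689 for saline mutants against wild type, 317 for treated mutants against wild type and 137 between the mutant groups. They come from the same libraries whose Edn3 values chose the set, so the listing of Edn3 is a description only. The other 4 genes were in none of the 3 lists. The authors' deposited table gave Edn3 a log2 fold change of 0.03 (SE 0.358) between treated and saline mutants.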

How the data were processed

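Hearts in 3 groups of 3 libraries were compared in pairs. HISAT2, HTSeq, DESeq2 and mm10 are named, without role, order or version, per the submitters' processing notes. The deposited values per library are whole numbers summing to nearly the same total, have no named unit and were treated as a score, a per-million value rounded by the authors; depth is unknown. The authors' deposited mean signal per gene, log2 fold changes, p-values and test statistic (a score) come from their own comparisons and were used only where named; the deposited column called adjusted equalled an unadjusted p. Values did not differ between tables. limma 3.58.1 in R 4.3.3 was fitted to log2(value + 1), which understates changes of low genes, per pair of groups, for genes with a mean of at least 1. Residual variances were held at or above the rounding variance (1/12), with a trended prior whose degrees of freedom came from genes with a mean of at least 30. Benjamini-Hochberg adjustment covered all genes tested, and a gene was called under 0.05. The script was tested on simulated data. Lists and members were chosen with earlier results of these data known. Genes named are the members, pathway genes called or described by role, and those most like or nearest to Edn3. One gene that this rule names is not reported here. Coordinates are from GENCODE M21 (GRCm38), sequences from RefSeq (GRCm38.p6). Replicate numbers did not pair the samples (see the closing section).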

Additional observations from a re-analysis of the deposited data

How the results depend on the processing

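The alternatives were other variance steps, scalings, pseudocounts and filters, all 9 libraries in one fit, a replicate block, each library left out, and the libraries with Xist left out; Edn1 could not be fitted with a mean of at least 10, since its mean is lower. No call of Edn1, Ednra, Ednrb or Ece1 was gained. Since wild-type Edn3 is 0, its difference from wild type on the log2(value + pseudocount) scale is set by the pseudocount: 5.46 in saline and 5.35 in treated mutants with 1, 6.44 and 6.34 with 0.5, and 3.26 and 3.17 with 5. With 1 library left out it ranged from 5.34 to 5.53 and from 5.02 to 5.65, and for treated against saline mutants from -0.44 to 0.19.

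Directions turned only for differences within the spread. Without the libraries with Xist, Edn1 (-0.21) and Ednrb (-0.0254) in saline mutants and Ednrb with treatment (0.19) changed sign, and Ednra moved from 0.33 to 0.0713 in saline mutants and from 0.08 to 0.30 with treatment. So did Ednrb with treatment under median-of-ratios factors (0.0148) and Edn1 with treatment at a pseudocount of 5 (-0.00109). With 1 library left out, saline mutant against wild type gave -0.26 to 0.61 for Edn1, 0.17 to 0.41 for Ednra, 0.02 to 0.20 for Ednrb and -0.22 to 0.00704 for Ece1. Treated against saline mutant gave -0.36 to 0.51, -0.000369 to 0.24, -0.21 to 0.14 and -0.0467 to 0.20, and treated mutant against wild type 0.08 to 0.48, 0.31 to 0.47, -0.0945 to 0.26 and -0.14 to 0.0878. The receptor balance ranged from 0.10 to 0.32, -0.00478 to 0.27 and 0.21 to 0.47.

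Pathway genes called numbered 10, 1 and 2 in the 3 comparisons. Without the rounding floor they were 6 in the first and 0 in the last, with the prior from all genes 2 in the second and 5 in the last, and with all 9 libraries in one fit 5 in the last. With 1 library left out they ranged from 8 to 9, 1 to 2 and 0 to 4; in the last they were 1, 0 and 4 without treated replicates 1, 2 and 3 and 0 without any 1 wild-type replicate. The second was 2 without saline mutant replicate 1 or treated replicate 1. The cause was not tested.

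Replicate numbers did not pair the samples: same-numbered deviations correlated at -0.277, -0.035 and -0.417 between the saline groups, -0.0796, 0.196 and 0.0975 between the mutant groups, and 0.621, 0.181 and 0.0313 between treated mutants and wild type, and not every library correlated best with its own number. With the replicate block the pathway counts were 10, 2 and 2, although the call of Ankrd1 in treated mutants against wild type was lost (adjusted p = 0.0776). Over all genes the block called 819, 30 and 35 in place of 1050, 2 and 134. The backgrounds above moved too: without the rounding floor 858, 32 and 77 were called, with the prior from all genes 1202, 14 and 243, and with 1 library left out 506 to 1029, 2 to 8 and 1 to 133. Of the calls between the saline groups 622 were higher and 428 lower, against 682 and 595 with median-of-ratios and 626 and 685 with upper-quartile factors; between treated mutants and wild type 117 were higher and 17 lower, against 119 and 46 with upper-quartile factors and 39 and 38 without the rounding floor.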

Other observations

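Some markers of sympathetic and other nerve-associated cells, in whose development endothelin-3 and receptor B are known to act, differed between groups at very low values. Between the saline groups, 1 of 2 tested neuron markers and 1 of 3 tested glia markers were called, against 7.70% of all genes tested. Dbh, the noradrenaline-forming enzyme, was 3, 4 and 4 in wild type, 0, 0 and 0 in the saline mutants and 1, 2 and 2 in the treated mutants. Dbh was called lower in saline mutants (limma adjusted p = 0.0014), as was the glial receptor gene Gfra3 (limma adjusted p = 0.0374), at 3, 3 and 2 against 1, 1 and 1. Sox10, the neural crest transcription factor, was 3, 2 and 1 in wild type, 1, 0 and 0 in the saline mutants and 2, 1 and 2 in the treated mutants, and was not called. The other tested neuron marker, Stmn2, was 6, 7 and 6, then 6, 5 and 9, then 6, 5 and 5 (0.03 between the saline groups, limma adjusted p = 0.988). In the treated libraries Dbh lay above all 3 saline mutant libraries, whereas the Edn3 values of the mutant groups overlapped. Values of 0 to 4 are near the rounding step, and a relation to Edn3 was not tested.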
